A study of Mus musculus with 76 samples.

Results

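Kidney gene expression after partial nephrectomy (PNx, surgical removal of part of the kidney tissue) was compared between SCID mice given cells carrying NaKtide and SCID mice given control cells. The comparison was defined by the sample labels alone: 5 kidney samples labelled Lenti-NaKtideCells-PNx against 5 labelled ControlCells-PNx, 10 of the 74 samples (76 libraries) of a series that also covers heart and visceral adipose tissue (VFAT). By its title the series concerns signalling by the Na/K-ATPase of adipose tissue in the heart disease that follows kidney failure. All 10 kidneys came from male Fox Chase SCID mice (CB17/Icr-Prkdcscid/IcrlcoCrl), 12 weeks old, that had PNx. The surgery and the immune deficiency are thus shared by both groups, and their labels differ only in the transplant. The transplant is labelled Lenti-adipo-NaKtide in 1 group and Control Cells in the other, and another kidney group received Lenti-adipo-scrambled cells after PNx. The labels do not say which cells were given, where, in what number or when, nor whether the control cells carried a lentivirus. A difference between these groups can therefore come from the NaKtide peptide, from the vector or from the cells, which cannot be told apart in this pair of groups, and the scrambled group is the closer control for the peptide. Whether each sample is its own animal is not stated either. The p-values below therefore reflect sample-to-sample spread, part of which may be technical.

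The Na/K-ATPase pumps sodium out of cells and potassium in, and it drives most salt reabsorption in the renal tubule. The pump also binds the tyrosine kinase Src, and NaKtide is a peptide made from a stretch of the pump that binds Src and blocks signalling through the pair. Loss of kidney mass raises circulating steroids that act on the pump, and the remnant kidney is known for growth of its tubules, loss of podocytes and deposition of matrix by fibroblast-like cells. SCID mice lack mature T and B lymphocytes but keep macrophages, neutrophils and NK cells.

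The libraries were not alike in depth or RNA composition. Total counts were 7549762 to 13575974 with NaKtide cells and 1241590 to 11096297 with control cells, where libraries 4 (4811672) and 5 (1241590) were the shallowest. An index of RNA length, the mean log2 CPM (counts scaled to library size) of genes with transcripts under 1928 bases minus that of genes over 6164 bases, is high where long transcripts are under-represented. It was 0.25 and 0.26 in control cells 4 and 5, -0.17 in NaKtide cells 1, and -1.21 to -0.51 in the other 7 libraries. Small structured RNAs (7SL, 7SK and other short non-coding RNAs) took 9.74% of the counts in control cells 5, 0.15% in NaKtide cells 1, 0.20% in control cells 4 and at most 0.10% elsewhere. Between the groups, neither the length index (exact permutation test, two-sided, p = 0.222, n = 5 and 5), nor the mitochondrial share (exact p = 0.183), nor the small RNA share (exact p = 0.230), nor the total (exact p = 0.206) passed, with an adjusted p of 0.230 for each and a smallest possible p of 0.0079. The quality weights that limma voom gave ranged from 0.24 (control cells 4) to 2.94 (NaKtide cells 3), with 0.29 for control cells 5 and 0.32 for NaKtide cells 1. Values without control cells 4 and 5 are therefore given for most lists and beside each named gene whose log2 fold change they move by over 1.5 times.

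**Figure D1:**
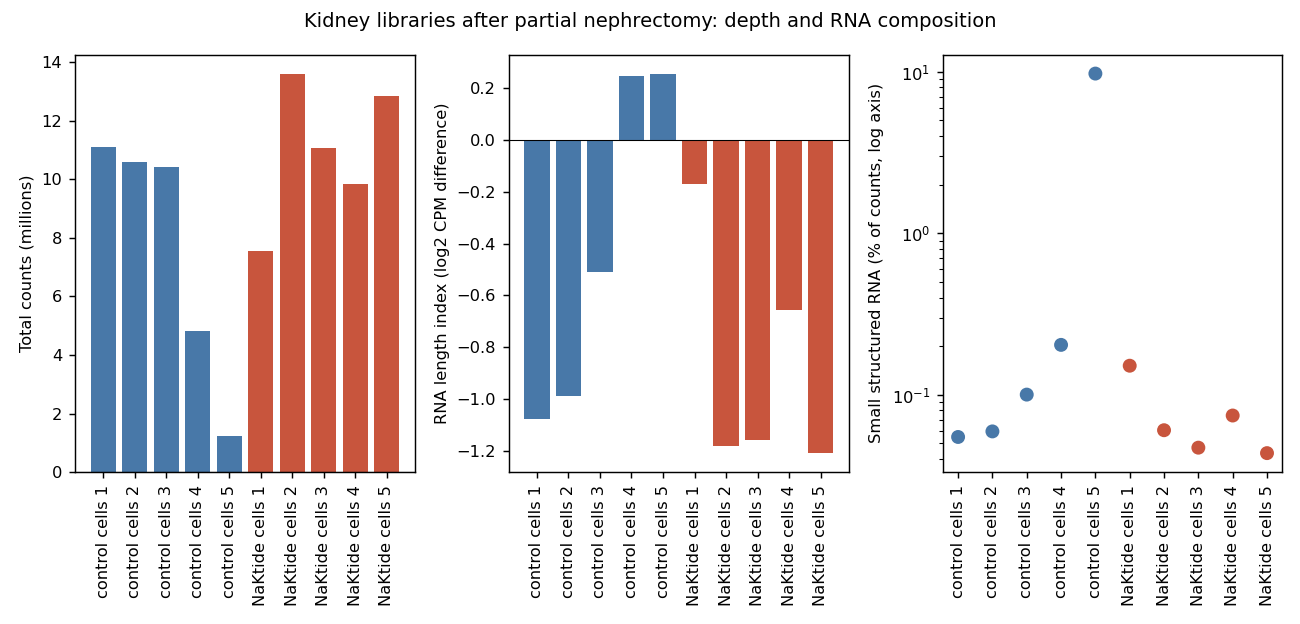
Total counts, RNA length index in log2 CPM and share of small structured RNA in percent (log axis), for each control cells (blue) and NaKtide cells (red) kidney library. Control cells 4 and 5 are the shallowest, alone have an index above 0, and control cells 5 alone has a small RNA share near 10% (9.74%).

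The libraries carried the markers of kidney. Summed over 19 proximal tubule genes the level was 19657 to 29912 CPM with NaKtide cells and 24557 to 38548 CPM with control cells, and all 19 were detected in each library. Lymphocyte genes (10 in the list) summed to 1.43 to 4.94 CPM over the 10 libraries. Marker genes of other tissues and of blood moved with control cells 4 and 5. The adipocyte genes of control cells 5 summed to 2748 CPM, against 205 to 365 CPM in the other control libraries, 563 and 534 CPM in NaKtide cells 1 and 3, and 219 to 235 CPM in NaKtide cells 2, 4 and 5. Adipoq, the fat cell hormone adiponectin, was at 32.1 CPM in control cells 5, 25.8 and 21.9 CPM in NaKtide cells 1 and 3, and at most 1.39 CPM elsewhere, with 0 in control cells 1 and 2. Erythrocyte genes summed to 7658 and 13257 CPM and neutrophil genes to 31.7 and 165 CPM in control cells 4 and 5, above the 1827 to 3227 CPM and 2.16 to 4.08 CPM with NaKtide cells. Skeletal muscle genes summed to 216 and 317 CPM in control cells 4 and 5 and to 40.3 to 117 CPM with NaKtide cells, and liver genes to 608 and 359 CPM against 188 to 322 CPM. Adrenal genes stayed at 0 to 6.15 CPM. In whole tissue, fewer cells of a type and less RNA per cell cannot be told apart.

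No gene passed the test over all genes. Of 16307 genes tested with edgeR's quasi-likelihood test, 0 (0%) had an adjusted p under 0.05 between NaKtide and control cells, and 2102 (12.9%) had an unadjusted p under 0.05, 671 higher (4.11%) and 1431 lower (8.78%) with NaKtide cells. Without control cells 4 and 5 edgeR again called 0 genes, and 508 of 16723 (3.04%) had an unadjusted p under 0.05, 398 higher (2.38%) and 110 lower (0.658%), so the excess of lower genes was not present in the other 8 libraries. limma voom with quality weights, which gives the libraries that stand apart less weight, called 392 genes (2.4%), 304 higher (1.86%) and 88 lower (0.54%). Its higher calls had a median transcript length of 5260.5 bases and its lower calls one of 2988.5 bases, against 3735 bases over all genes tested, and the part of RNA length in the calls was not tested apart from the values with the length index given below. Of these 392 genes, 390 had the same sign in edgeR, all 392 had the same sign in edgeR without control cells 4 and 5, and 388 were among the 661 (3.95%), 459 higher (2.74%) and 202 lower (1.21%), that voom called without those libraries. The 392 were chosen from the same libraries, and voom had already given control cells 4 and 5 low weights (0.24 and 0.29). Such agreement was therefore largely set in advance and is no separate support for the calls. DESeq2 gave an adjusted p to 1127 genes and called 78 of them (6.92%), 1 higher (0.0887%) and 77 lower (6.83%). Only 4 genes were called by both voom and DESeq2. In 118 genes (0.724%) every NaKtide library was above every control library, and in 45 genes (0.276%) every one was below. The genes below are named by a rule (the 12 of lowest p in each direction, the members of lowest p in each gene list, and a fixed set), and none passed edgeR.

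Prelp, on chromosome 1 (133910304 to 133921414, minus strand, GRCm38) and encoding a small proteoglycan that ties collagen to basement membranes, had the lowest p of the genes that were higher. It stood at 15.2, 14.2, 26.0, 13.4 and 17.5 CPM in NaKtide cells 1 to 5 and at 6.75, 5.64, 9.49, 8.18 and 7.41 CPM in control cells 1 to 5. Every NaKtide library exceeded every control library, with means of 17.3 ± 5.10 and 7.49 ± 1.45 CPM (SD, n = 5 each). The log2 fold change was 1.21 (SE 0.24; edgeR adjusted p = 0.215) and 1.23 without control cells 4 and 5, and limma voom called it (adjusted p = 0.0042).

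The other 11 genes of that rank had log2 fold changes of 0.53 to 1.35 and were all called by voom. Over all genes, voom called 1.86% higher and 0.724% were higher without overlap. The 12 genes were picked for a low p in the same libraries, so their voom calls and lack of overlap are no separate support. Tril, an accessory protein of Toll-like receptor signalling, was at 4.99 to 12.4 CPM with NaKtide cells and 2.04 to 4.39 CPM with control cells, which did not overlap (log2 fold change 1.35, SE 0.31). Groups also did not overlap for Tmem204, a membrane protein of vessel lining (0.79, SE 0.18), for Hoxc6, a homeobox factor (0.75, SE 0.18), for Plpp1, a lipid phosphatase (0.93, SE 0.23), for Cpm, a carboxypeptidase (0.80, SE 0.22), and for Flcn, folliculin (0.53, SE 0.14, and 0.33 without control cells 4 and 5). Svep1 (1.14, SE 0.26), a large adhesion protein, Adamts5 (1.14, SE 0.28), a protease that cuts proteoglycans, and Col15a1 (0.91, SE 0.24), a basement membrane collagen, overlapped between groups. So did Arap3 (0.76, SE 0.20), a regulator of small GTPases in vessel cells, and Daam2 (0.99, SE 0.26), a formin. In each of Svep1, Col15a1 and Daam2, NaKtide cells 1 was the lowest of its group and lay within the control range, at 5.53, 18.3 and 7.01 CPM. Leaving out control cells 4 and 5 moved none of the 12 below 0.33 or above 1.23.

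**Figure D2:**
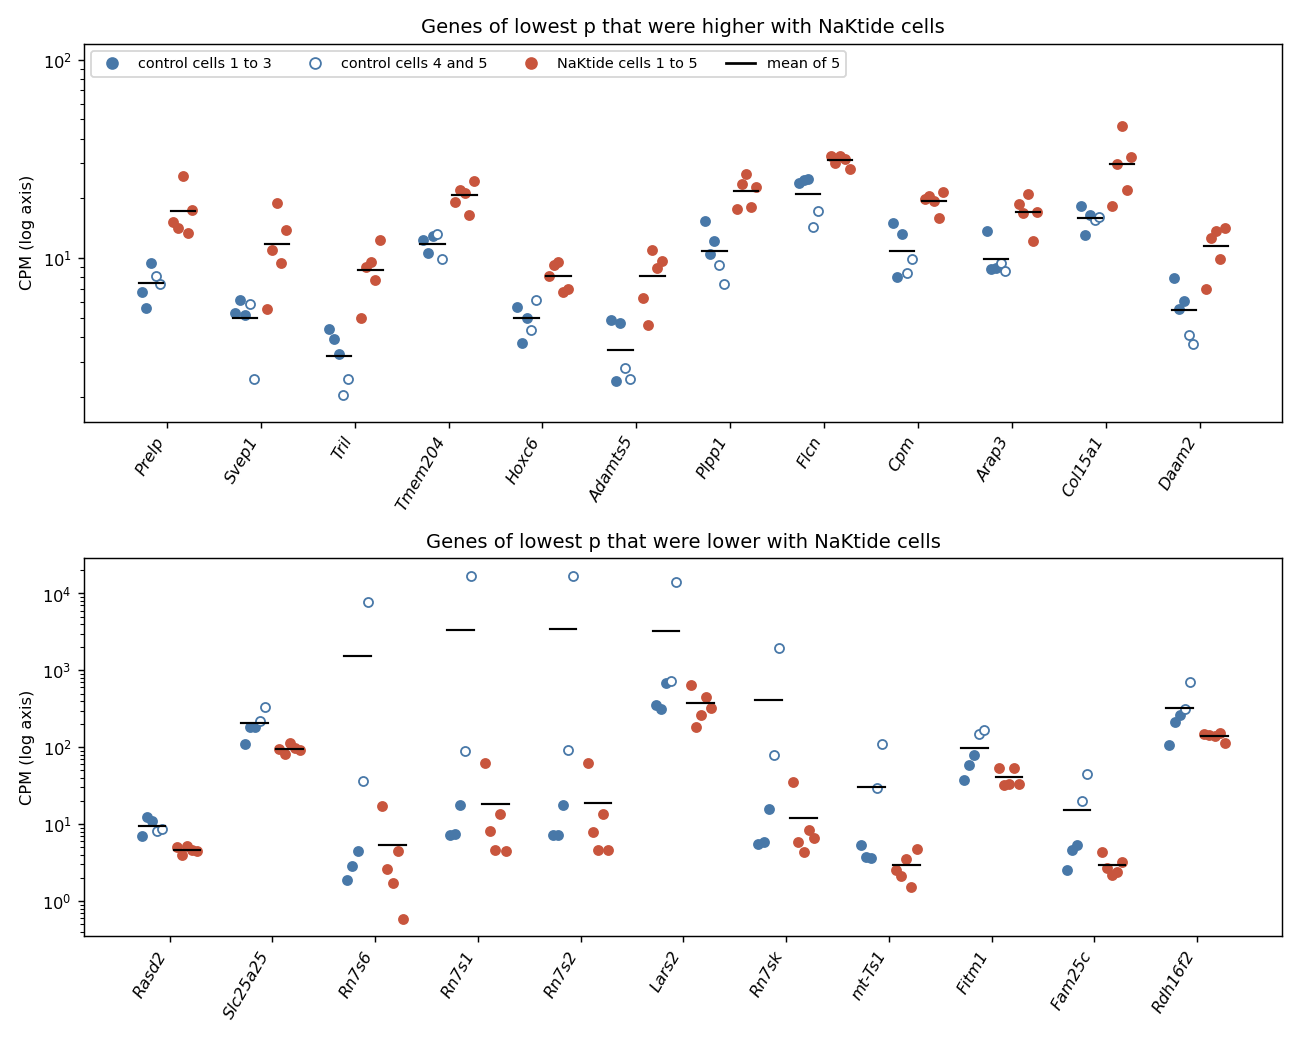
CPM (log axis) in each kidney library for genes of lowest p that were higher (top) and lower (bottom) with NaKtide cells, as blue points for control cells (open for libraries 4 and 5), red for NaKtide cells and black lines for arithmetic means of 5. Most of the higher genes differ by similar steps with and without the open points, though Flcn goes from 0.53 to 0.33 in log2 fold change. Svep1, Adamts5, Col15a1, Arap3 and Daam2 overlap between groups. Rn7s1, Rn7s2, Rn7s6, Rn7sk, Lars2 and mt-Ts1 are highest in open points, such as 16813 CPM of Rn7s1 in control cells 5.

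Extracellular matrix genes had the highest median of the lists with at least 8 tested genes over all 10 libraries, though not in the fits without control cells 4 and 5 or with the length index, where the adipocyte list stood at 4.35 and 2.80. Of 16 genes 15 were higher, with a median log2 fold change of 0.75 against 0.04 over all genes tested, and 9 of 16 had an unadjusted p under 0.05 in that direction, against 4.11% of all genes. limma voom called 9 of the 16, all higher, against 1.86% of all genes. It gave NaKtide cells 3, which had the highest matrix sum, a weight of 2.94. NaKtide cells 1, which had the lowest, got 0.32, so the voom calls rest little on it. Of the 16 genes 0 were higher without overlap between the groups, against 0.724% of all genes. Without control cells 4 and 5 all 16 were higher (median 0.83), and a fit that included the length index kept all 16 higher too (median 0.75). Col1a1, the main chain of type I collagen on chromosome 11 (94936224 to 94953042), was at 13.1, 37.4, 88.98, 18.4 and 40.03 CPM in NaKtide cells 1 to 5 and at 16.7, 12.1, 15.1, 16.4 and 6.17 CPM in control cells 1 to 5. NaKtide cells 3 was the highest and NaKtide cells 1 lay inside the control range, so the groups overlapped. Its log2 fold change was 1.499 (SE 0.46; edgeR adjusted p = 0.345; voom adjusted p = 0.028). The partner chain Col1a2 (1.26, SE 0.38) and the type III collagen Col3a1 (1.29, SE 0.39) had the same order of libraries at the top, with NaKtide cells 3 at 129 and 119 CPM, and voom called both. Lox, the enzyme that crosslinks collagen, was low throughout, at 0.27 to 2.38 CPM against 0 to 0.59 CPM (2.47, SE 0.65), and listed at 0 in control cells 4 and 5, and voom called it. Bgn, the proteoglycan biglycan, was at 97.8 to 211 CPM against 62.3 to 167 CPM (0.43, SE 0.29), and at 0.90 without control cells 4 and 5. limma voom called it (adjusted p = 0.0081).

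The size of the matrix difference varied between NaKtide libraries. Summed over the 16 genes the level was 554, 978, 1508, 764 and 1058 CPM in NaKtide cells 1 to 5 and 634, 582, 581, 607 and 586 CPM in control cells 1 to 5. Thus 4 of 5 NaKtide libraries lay above the narrow control range and NaKtide cells 1, whose length index was the highest of its group, lay below it. The 2 NaKtide libraries with raised adipocyte genes, 1 and 3, held the lowest and the highest matrix sum, and the part of fat tissue in the result was not tested.

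TGF-beta genes went the same way. TGF-beta is the growth factor that drives collagen production in injured kidneys. All 13 genes of its list were higher (median 0.50, and 0.74 without control cells 4 and 5, where 11 of 13 were higher), 2 had an unadjusted p under 0.05 (4.11% of all genes in that direction), and voom called 2 (1.86% of all genes). Ltbp1, which holds latent TGF-beta in the matrix, was at 9.03 to 22.7 CPM against 5.88 to 16.1 CPM (1.07, SE 0.35; voom adjusted p = 0.012). The other voom call was the ligand Tgfb1 (voom log2 fold change 0.81, adjusted p = 0.023). In edgeR the log2 fold change of Tgfb1 was 0.08. The ligand Tgfb3 was low, at 1.16 to 4.43 CPM against 0 to 1.28 CPM (1.21, SE 0.46), and the target Ccn2 was at 25.02 to 53.4 CPM against 16.5 to 25.9 CPM (0.74, SE 0.36). Neither was called by voom. Of genes looked up after their values were seen, Pdgfra, the platelet-derived growth factor receptor of fibroblasts, was at 5.66 to 16.8 CPM against 2.51 to 6.66 CPM (1.27, SE 0.36; voom adjusted p = 0.011). Mrc2, a collagen uptake receptor, stood 0.73 higher (SE 0.20) and Emilin1, an elastic fibre protein, 0.66 higher (SE 0.25), both with a voom adjusted p of 0.0042. Since Pdgfra, Mrc2 and Emilin1 were picked with these values known, their calls are no separate support.

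Endothelial and podocyte genes also lay above 0. Of 10 endothelial genes 9 were higher (median 0.52; 10 of 10 and 0.56 without control cells 4 and 5), 5 had an unadjusted p under 0.05 (4.11% of all genes in that direction), and voom called 7 (1.86% of all genes). Ehd3, a membrane trafficking protein enriched in glomerular capillaries, was at 29.7, 26.2, 33.5, 25.5 and 31.9 CPM with NaKtide cells and 21.9, 17.7, 19.7, 19.2 and 18.5 CPM with control cells. These groups did not overlap (0.59, SE 0.16; edgeR adjusted p = 0.345; voom adjusted p = 0.037). The junction protein Pecam1 was at 35.9 to 71.2 CPM against 28.2 to 46.3 CPM (0.60, SE 0.23), the TGF-beta co-receptor Eng at 80.5 to 99.4 CPM against 47.8 to 83.8 CPM (0.51, SE 0.23, and 0.76 without control cells 4 and 5), and the VEGF receptor Kdr at 26.7 to 44.9 CPM against 17.9 to 33.2 CPM (0.54, SE 0.24). limma voom called Pecam1 and Eng but not Kdr. Genes of the vessel wall were mixed, with 5 of 8 higher and 3 lower (median 0.14; 7 of 8 and 0.31 without control cells 4 and 5). Pdgfrb, the pericyte and mesangial receptor, was the only one of these 8 that voom called, at 19.4 to 33.2 CPM against 8.64 to 17 CPM with no overlap (0.71, SE 0.22). Podocyte genes, those of the cells that carry the filtration slit, were higher in 8 of 9 (median 0.57, and 0.35 without control cells 4 and 5). Of the 9, 4 were higher with an unadjusted p under 0.05, against 4.11% of all genes. Without those libraries 1 was, against 2.38% of all genes. Among them, Synpo, an actin-binding protein of podocyte foot processes, was at 18.8 to 33.2 CPM against 13.2 to 21.9 CPM (0.69, SE 0.20). No podocyte gene was called by voom.

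Macrophage genes split with the control libraries. Over all 10 libraries 6 of 12 were higher (median 0.04), and 11 of 12 without control cells 4 and 5 (median 0.67), since those libraries held the highest control sums, 319 and 599 CPM against 136 to 221 CPM in the other control libraries. With NaKtide cells the sum was 142 to 340 CPM. Mrc1, the mannose receptor of resident macrophages, was at 1.89 to 10.8 CPM against 0.51 to 4.30 CPM (1.37, SE 0.58), and Itgam, an integrin of myeloid cells, at 0.39 to 1.72 CPM against 0 to 0.47 CPM (1.64, SE 0.93). Neither was called by any test run on all 10 libraries. limma voom called 1 of the 12, Cx3cr1 (voom log2 fold change 1.02, adjusted p = 0.023), against 1.86% of all genes higher. In edgeR the log2 fold change of Cx3cr1 was -0.01.

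**Figure D3:**
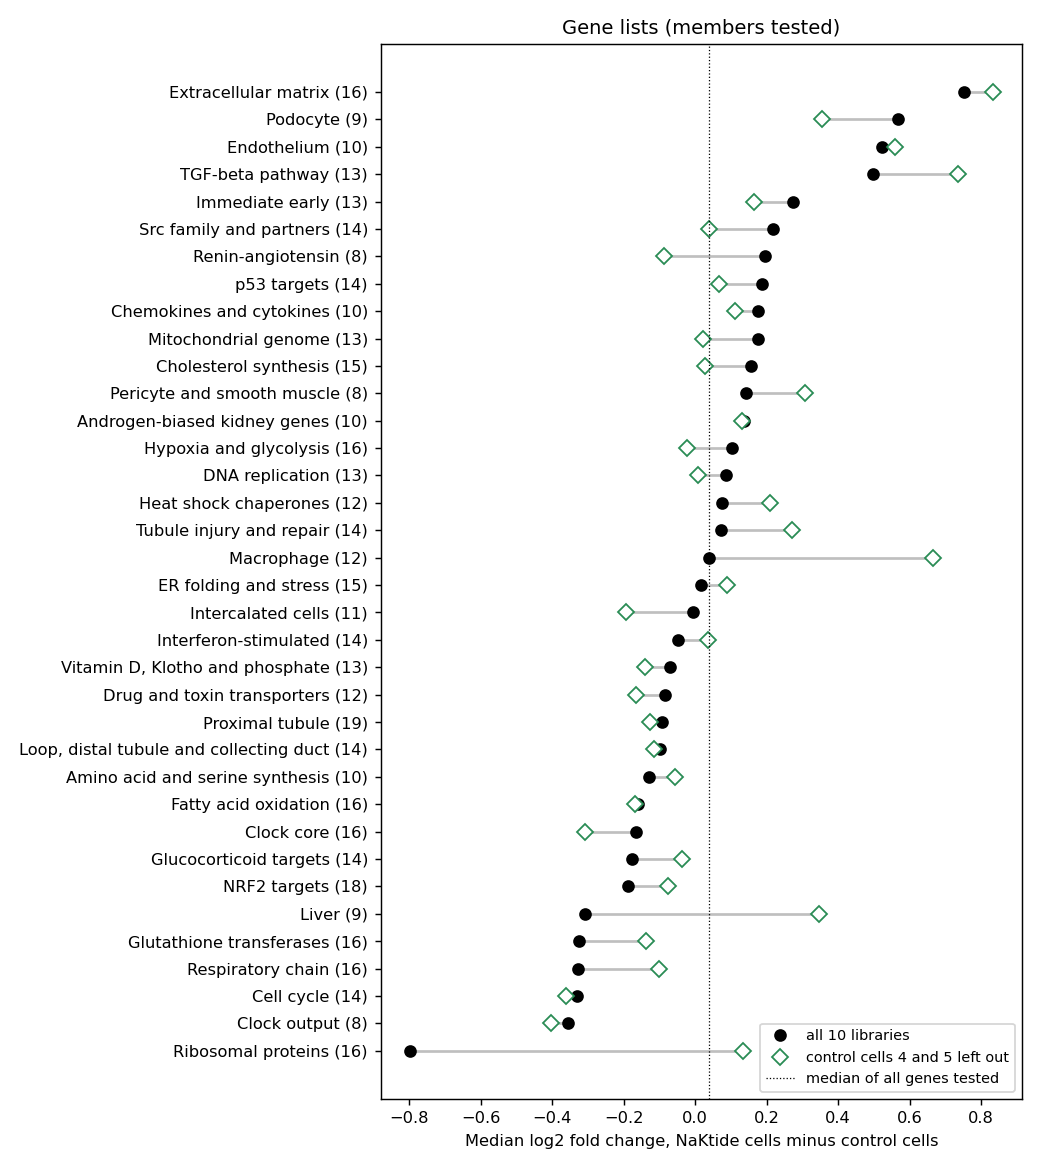
Median log2 fold change (NaKtide cells minus control cells) of each gene list with at least 8 tested members, over all 10 libraries (black circles) and without control cells 4 and 5 (open green diamonds), the dotted line being the median of all genes (0.04). Adipocyte genes, whose median went from -0.42 to 4.35, are off the axis and not drawn, and ribosomal protein genes cross from -0.80 to 0.13.

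Among the genes that were lower with NaKtide cells, Rasd2 was separated between the groups and kept its size without the shallow control libraries. Rasd2, a Ras-like GTP-binding protein on chromosome 8 (75213944 to 75224113), was at 4.99, 4.02, 5.17, 4.64 and 4.53 CPM against 7.09, 12.4, 10.99, 8.18 and 8.64 CPM. Its groups did not overlap (-1.04, SE 0.22; edgeR adjusted p = 0.215; voom adjusted p = 0.0042), and it was at -1.14 without control cells 4 and 5. Slc25a25, a mitochondrial carrier of ATP-magnesium and phosphate, was at 82.1 to 114 CPM against 109.9 to 329.7 CPM (-1.08, SE 0.24; voom adjusted p = 0.047), and at -0.74 without those libraries. Rasd2 and Slc25a25 were also picked for a low p in the same libraries, so their voom calls are no separate support.

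Fatty acid oxidation genes were lower by small amounts. Of 16 genes 12 were lower (median -0.16; 15 of 16 and -0.17 without control cells 4 and 5), 3 had an unadjusted p under 0.05, against 8.78% of all genes in that direction, and voom called 0. Cpt2, the inner-membrane carnitine transferase, was at 177 to 222 CPM against 199 to 301 CPM (-0.43, SE 0.17). Cyp4a14, an omega-hydroxylase under PPAR-alpha, was at 4.72 to 34.1 CPM against 18.6 to 81.7 CPM (-1.54, SE 0.69), and its near-identical family members make its counts uncertain. Angptl4, which is not a member of this list, is a secreted inhibitor of lipoprotein lipase that fasting also induces. It was at 22.4 to 58.1 CPM against 52.97 to 104 CPM (-0.86, SE 0.35). In Cpt2, Cyp4a14 and Angptl4 the groups overlapped and none was called by voom. Of the 16 list members 1 was lower without overlap, against 0.276% of all genes.

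Some transport and metabolic genes of the tubule were lower without overlap. Scnn1b, a subunit of the epithelial sodium channel of the collecting duct, was at 46.5 to 59.0 CPM with NaKtide cells and 61.3 to 142 CPM with control cells (-0.67, SE 0.20; voom adjusted p = 0.043), and at -0.43 without control cells 4 and 5. Rhcg, an ammonia channel of intercalated cells, was at 69.5 to 89.3 CPM against 94.2 to 151 CPM (-0.57, SE 0.19; voom adjusted p = 0.039), and at -0.37 without them. Pck1, the gluconeogenic enzyme that the proximal tubule uses when it makes ammonia, was at 1504 to 1785 CPM against 1956 to 3394 CPM (-0.60, SE 0.27; voom adjusted p = 0.051), and at -0.77 without them. Control cells 1 was the control library closest to the NaKtide range for each of Scnn1b, Rhcg and Pck1. The related ammonia channel Rhbg was at 12.3 to 21.2 CPM against 18.1 to 92.6 CPM (-1.24, SE 0.40), but at -0.36 without control cells 4 and 5. As lists, the tubule segments had medians slightly under 0. The proximal tubule list had 13 of 19 lower (median -0.09; 16 of 19 and -0.13 without control cells 4 and 5). The loop, distal tubule and collecting duct list had 8 of 14 lower (-0.10; 11 of 14 and -0.11) and the intercalated cell list 6 of 11 (-0.01; 10 of 11 and -0.19). The median of all genes was 0.01 without those libraries. Single members that define the segments lay close to 0: the phosphate transporter Slc34a1 at -0.20 (SE 0.24), the lactate transporter Slc5a12 at 0.13 (SE 0.44) and uromodulin, Umod, at 0.02 (SE 0.20). Without control cells 4 and 5 these were at -0.05, -0.30 and -0.11. Slc13a3, a dicarboxylate transporter of the proximal tubule, was at 678 to 1129.5 CPM against 933 to 1545 CPM (-0.53, SE 0.22, and -0.36 without them).

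The lower genes of lowest p were in part small non-coding RNAs that rest on control cells 5. Rn7s1, a 7SL RNA of the signal recognition particle, was at 16813 CPM in control cells 5, 89.7 CPM in control cells 4, 7.17 to 17.6 CPM in control cells 1 to 3, and 4.46 to 61.6 CPM with NaKtide cells. Its log2 fold change was -7.53 (SE 1.79; edgeR adjusted p = 0.215) and turned to 0.74 without control cells 4 and 5. The copies Rn7s2 and Rn7s6 turned from -7.53 to 0.75 and from -8.22 to 0.73, and Rn7sk, the 7SK RNA that restrains transcription elongation, from -5.07 to 0.38. The 7SL copies are near-identical and reads cannot be assigned between them with certainty. Lars2, which encodes mitochondrial leucyl-tRNA synthetase, went from -3.12 to -0.29, and mt-Ts1, a mitochondrial serine tRNA, from -3.11 to -0.56. Fitm1 (-1.22 to -0.52), a lipid droplet protein, Fam25c (-2.09 to -0.51) and Rdh16f2 (-1.18 to -0.47), a retinol dehydrogenase family member, kept their direction at a smaller size, and voom called Fitm1 alone of these 3.

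Short and highly expressed genes of translation, respiration and detoxification moved with the same libraries, in whole or in part. Of the lists in this paragraph only the ribosomal one changed direction without control cells 4 and 5. All 16 ribosomal protein genes were lower (median -0.80), 9 with an unadjusted p under 0.05, against 8.78% of all genes in that direction. Without control cells 4 and 5, 15 of 16 were higher (median 0.13). Rplp1, an acidic stalk protein of the ribosome, was at 1214 and 2804 CPM in control cells 4 and 5, 269 to 371 CPM in control cells 1 to 3 and 243 to 581 CPM with NaKtide cells. The respiratory chain list had 13 of 16 lower (median -0.33; 12 of 16 and -0.10 without those libraries), and its member Cox4i1 was at 2169 and 3726 CPM in control cells 4 and 5 against 551 to 1320 CPM with NaKtide cells. Glutathione transferases were lower in 15 of 16 (median -0.33; 13 of 16 and -0.14 without those libraries), and the antioxidant NRF2 list in 12 of 18 (-0.19; 15 of 18 and -0.08). Of the 16 transferases 7 were lower with an unadjusted p under 0.05, against 8.78% of all genes. Without those libraries 2 were, against 0.658% of all genes. Gpx3, the secreted glutathione peroxidase, was at 6072 to 10808 CPM against 7572 to 31373 CPM (-0.86, SE 0.30) and at -0.07 without control cells 4 and 5, and Gstp1 went from -0.99 (SE 0.37) to -0.02. Gsta2 differed from these. It was at 47.7 to 74.7 CPM with NaKtide cells and at 49.9, 153, 142, 107 and 153 CPM with control cells (-1.03, SE 0.31), and stayed at -0.98 without control cells 4 and 5, with only control cells 1 inside the NaKtide range. Kap, the androgen-regulated kidney protein, went from -0.93 (SE 0.36) to 0.08.

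No gene of the Na/K-ATPase and Src lists, the pair that NaKtide addresses, was called, but edgeR called 0 of all 16307 genes. Atp1b1, the main beta subunit of the kidney, was at 1094 to 1531 CPM against 793 to 1581 CPM (0.14, SE 0.28), and at -0.17 without control cells 4 and 5. Atp1b3 was at 81.3 to 108 CPM against 55.6 to 87.1 CPM (0.30, SE 0.13, and 0.20 without those libraries). Of 6 subunit genes 3 were higher and 3 lower (median -0.03, and 0.02 without those libraries). The FXYD regulators had 4 of 5 lower (median -0.56) and 5 of 5 higher without control cells 4 and 5 (0.41). Fxyd2, the gamma subunit that tunes the pump's affinity for sodium, is a short gene and moved with the control libraries. It was at 4455 and 8091 CPM in control cells 4 and 5, 1199 to 1569 CPM in control cells 1 to 3 and 1156 to 2483 CPM with NaKtide cells, so its log2 fold change of -1.13 (SE 0.41) was 0.14 without them. Src was at 30.3 to 38.5 CPM against 32.7 to 46.9 CPM (-0.13, SE 0.12; edgeR adjusted p = 0.742), and at -0.04 without control cells 4 and 5. Its relative Fyn was at 6.47 to 10.8 CPM against 5.37 to 8.64 CPM (0.50, SE 0.26), and the downstream kinase Mapk3 at -0.39 (SE 0.18), which was 0.01 without control cells 4 and 5. voom called 0 of the 6 Na/K-ATPase, 5 FXYD and 14 Src-related genes, against 2.4% of all genes. At that share, lists this short can hold no call without differing from other genes. Of the 14 Src-related genes 11 were higher (median 0.22), and 9 without control cells 4 and 5 (0.04). RNA levels do not measure kinase signalling.

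Circadian clock genes lay on both sides of 0. Of 16 core clock genes 7 were higher and 9 lower (median -0.17; 12 lower and -0.31 without control cells 4 and 5). Of these 16, 3 were higher with an unadjusted p under 0.05, against 4.11% of all genes in that direction. limma voom called 2, both lower, against 0.54% of all genes. In the clock, Arntl (BMAL1) pairs with Clock or Npas2 to switch on Per, Ciart and Dbp, and Arntl and Nfil3 peak when Dbp and the Per genes are low. The 3 were Arntl, Npas2 and Nfil3. Arntl, on chromosome 7 (113207465 to 113314126), was at 0.54, 6.93, 2.13, 2.32 and 3.29 CPM in NaKtide cells 1 to 5 and at 1.52, 0.54, 0.38, 0 and 1.23 CPM in control cells 1 to 5. NaKtide cells 1 alone lay in the control range, and the log2 fold change was 2.102 (SE 0.70; edgeR adjusted p = 0.345; voom adjusted p = 0.056). Npas2 was at 0.54 to 5.57 CPM against 0 to 2.47 CPM (1.56, SE 0.63), and the repressor Nfil3 at 2.34 to 6.93 CPM against 0.72 to 2.54 CPM (1.31, SE 0.57). Clock was at 12.9 to 37.3 CPM against 7.16 to 27.1 CPM (0.59, SE 0.37, and 0.26 without control cells 4 and 5). Ciart, a repressor of the loop, was at 14.4, 4.02, 5.25, 6.28 and 8.18 CPM against 10.8, 24.2, 14.2, 20.4 and 6.17 CPM (-1.07, SE 0.55; voom adjusted p = 0.037). Again NaKtide cells 1 stood with the control libraries, while control cells 5 lay among the NaKtide libraries. Dbp, the output factor, was at 70.0 to 194 CPM against 109.9 to 226 CPM (-0.57, SE 0.36), and Per2 at 13.5 to 27.9 CPM against 13.3 to 30.0 CPM (-0.37, SE 0.32, and -0.56 without control cells 4 and 5). All 8 genes of the output list were lower (median -0.36), and 7 of 8 without control cells 4 and 5 (median -0.40). Over all 10 libraries 3 of the 8 had an unadjusted p under 0.05, against 8.78% of all genes in that direction, and 0 had one without control cells 4 and 5. The 3 were Usp2, a deubiquitinase (-0.69, SE 0.28), Por, the electron donor of cytochromes P450 (-0.46, SE 0.19, and -0.23 without control cells 4 and 5), and Tef, a relative of Dbp, which voom called (-0.43, SE 0.19; adjusted p = 0.046). The time of day of tissue collection is not in the labels, so time and treatment cannot be told apart.

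RefSeq promoter windows (GRCm38.p6, 250 bases before to 50 after the annotated start) were read for the clock genes because orphan receptors of the ROR and REV-ERB families act on Arntl and Nfil3 through a short element. The motif AGTAGGTNA, searched on both strands, occurred in 194 of 32851 windows (0.591%) and in 2 of the 13 core clock genes with a window, Arntl and Nfil3. The 2 Arntl matches differ only at the motif's N, so the motif has the form of the Arntl sites. Its presence in Arntl therefore cannot be set against the 0.591%. Outside the clock lists, the endothelial gene Ehd3 also had the motif in its 1 window, which is not printed. Capitals mark the matches, at bases 243 to 251 and 279 to 287 of the Arntl window (chr7:113207261-113207560, plus strand) and at bases 239 to 247 of the Nfil3 window (chr13:52980990-52981289, minus strand), where the match is on the other strand.
Arntl: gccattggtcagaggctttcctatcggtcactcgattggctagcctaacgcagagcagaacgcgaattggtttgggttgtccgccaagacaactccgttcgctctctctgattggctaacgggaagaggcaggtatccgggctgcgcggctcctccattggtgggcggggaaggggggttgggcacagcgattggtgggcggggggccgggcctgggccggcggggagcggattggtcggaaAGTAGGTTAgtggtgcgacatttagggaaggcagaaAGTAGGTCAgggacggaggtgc
Nfil3: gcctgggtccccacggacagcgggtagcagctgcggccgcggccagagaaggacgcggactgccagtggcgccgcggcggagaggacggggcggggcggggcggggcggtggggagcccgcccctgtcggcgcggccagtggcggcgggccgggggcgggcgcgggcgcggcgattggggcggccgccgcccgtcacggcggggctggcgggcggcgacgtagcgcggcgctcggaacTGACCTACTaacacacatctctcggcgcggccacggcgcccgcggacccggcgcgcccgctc
These are matches of letters, and no factor's binding was measured.

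Interferon-inducible GTPases were lower with NaKtide cells, and control cells 2 carried much of the difference. These genes were picked after their values were seen. They encode immunity-related GTPases (Igtp, Irgm1, Irgm2) and guanylate-binding proteins (Gbp6, Gbp10) that attack membranes around intracellular pathogens and are induced by interferon-gamma. Igtp was at 9.98, 14.5, 12.1, 15.4 and 11.8 CPM in NaKtide cells 1 to 5 and at 28.2, 89.6, 11.2, 21.0 and 16.1 CPM in control cells 1 to 5. Control cells 2 was far above all others and control cells 3 lay among the NaKtide libraries. The log2 fold change was -1.43 (SE 0.38; edgeR adjusted p = 0.345; voom adjusted p = 0.022), -1.77 without control cells 4 and 5, and -0.60 without control cells 2. Irgm1 was at 28.0 to 54.2 CPM against 38.3 to 157 CPM (-0.73, SE 0.30, and -0.20 without control cells 2), and Irgm2 at 10.8 to 17.9 CPM against 10.8 to 65.8 CPM (-1.04, SE 0.39, and -0.40 without it). Gbp6 (-1.58, SE 0.50) was at -0.39 and Gbp10 (-2.08, SE 0.69) at -0.78 without control cells 2. Over all 10 libraries voom called Irgm1, Irgm2 and Gbp10 but not Gbp6. Gbp6 and Gbp10 are close paralogs, and the annotated spans of Igtp and Irgm2 overlap on the same strand, so their counts are not fully separable. The wider interferon list, which holds none of these GTPases, had 8 of 14 lower (median -0.05; 6 of 14 and 0.04 without control cells 4 and 5). Of its lower genes 2 had an unadjusted p under 0.05, against 8.78% of all genes in that direction, and voom called 0 of the 14.

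The promoters of the 3 immunity-related GTPases are shown because the genes had the same order of libraries at the top, with control cells 2 and then 1 the highest. Capitals mark the interferon-gamma activation motif TTCNNNGAA, held by 2726 of 32851 RefSeq windows (8.3%), and the interferon-response motif, GAAA and GAAA with any 2 bases between them, held by 1131 (3.44%), both strands searched. Igtp (chr11:58199306-58199605, plus strand) has TTCNNNGAA at bases 206 to 214 and the interferon-response motif at 217 to 226, Irgm2 (chr11:58214727-58215026, plus strand) has them at 176 to 184 and 187 to 196, and Irgm1 (chr11:48871371-48871670, minus strand) has the interferon-response motif at 221 to 230 and, overlapping it, at 227 to 236.
Igtp: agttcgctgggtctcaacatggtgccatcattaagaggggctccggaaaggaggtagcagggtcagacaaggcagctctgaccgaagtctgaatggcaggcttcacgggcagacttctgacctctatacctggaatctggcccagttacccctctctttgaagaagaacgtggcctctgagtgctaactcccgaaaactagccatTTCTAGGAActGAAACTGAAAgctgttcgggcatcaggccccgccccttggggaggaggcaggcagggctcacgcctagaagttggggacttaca
Irgm2: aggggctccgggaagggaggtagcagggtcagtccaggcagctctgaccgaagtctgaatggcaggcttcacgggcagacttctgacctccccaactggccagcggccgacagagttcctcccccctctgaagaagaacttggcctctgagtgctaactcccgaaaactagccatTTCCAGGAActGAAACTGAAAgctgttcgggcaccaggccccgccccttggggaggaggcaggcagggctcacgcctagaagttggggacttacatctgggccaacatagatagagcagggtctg
Irgm1: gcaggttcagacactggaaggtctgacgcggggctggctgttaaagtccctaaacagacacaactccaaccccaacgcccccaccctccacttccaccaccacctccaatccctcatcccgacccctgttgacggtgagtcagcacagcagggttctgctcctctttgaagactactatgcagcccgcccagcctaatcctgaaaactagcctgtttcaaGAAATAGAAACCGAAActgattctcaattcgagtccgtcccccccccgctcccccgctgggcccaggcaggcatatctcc
The same 2 motifs lie 2 bases apart in Igtp and in Irgm2, and the wider interferon list held the interferon-response motif in 8 of the 11 genes with a window.

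**Figure D4:**
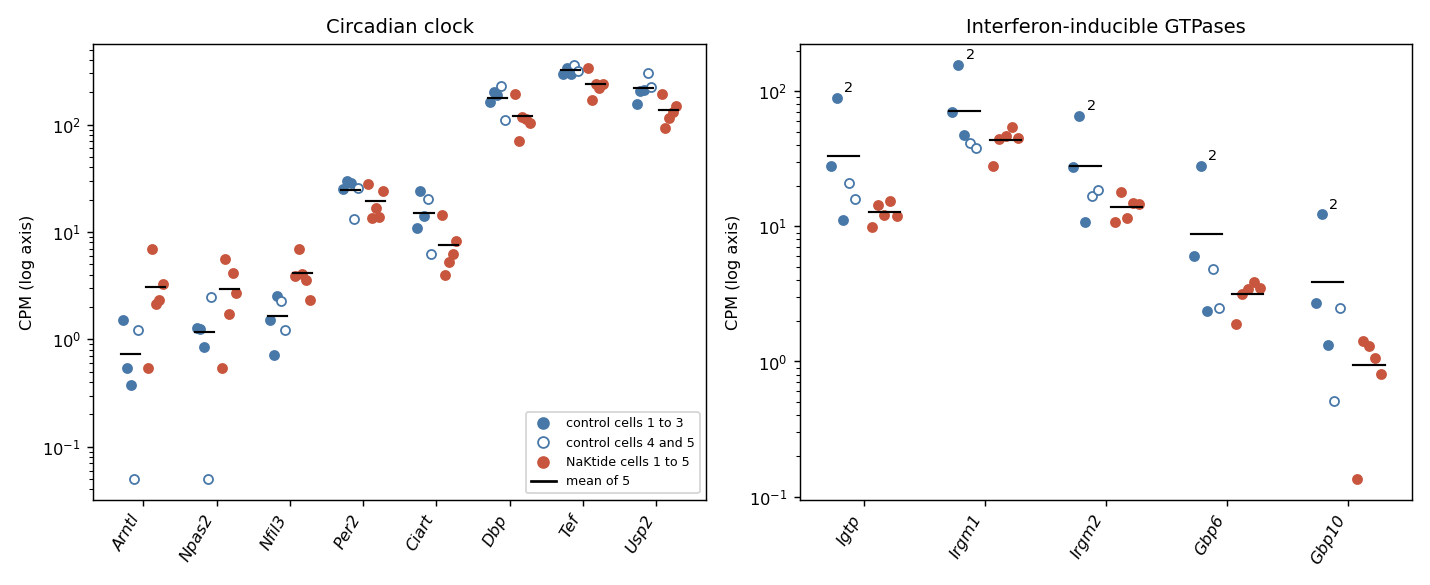
CPM (log axis) in each kidney library for clock genes (left) and for interferon-inducible GTPases (right), colours as above, values of 0 drawn at 0.05 and control cells 2 marked by its number. Arntl, Npas2 and Nfil3 lie higher and Ciart, Dbp, Tef and Usp2 lower in most NaKtide libraries, and control cells 2 is the highest point for every gene on the right, such as 89.6 CPM of Igtp.

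Mitosis genes were lower in 12 of 14 (median -0.33), 2 with an unadjusted p under 0.05 (8.78% of all genes in that direction) and 0 called by voom. Without control cells 4 and 5 they were lower in 13 of 14 (median -0.36), 3 with an unadjusted p under 0.05 against 0.658% of all genes. Cdc20, an activator of the anaphase-promoting complex, was at 2.42 to 4.21 CPM against 2.28 to 8.64 CPM (-0.92, SE 0.33), Birc5 (survivin) at 1.17 to 2.38 CPM against 1.23 to 3.83 CPM (-0.73, SE 0.31), and Mki67 at -0.31 (SE 0.35). The p53 target Cdkn1a, the cell cycle inhibitor p21, was at 7.96 to 26.5 CPM against 10.6 to 29.6 CPM (0.21, SE 0.36, and 0.56 without control cells 4 and 5). Of 14 tubule injury and repair genes 9 were higher (median 0.07), 11 without control cells 4 and 5 (0.27) and 11 with the length index in the fit (0.32). limma voom called 1 of the 14, Timp2 (voom log2 fold change 0.95, adjusted p = 0.035; edgeR 0.55), against 1.86% of all genes higher. Havcr1, the injury marker KIM-1, did not differ beyond its spread, at 18.7 to 24.1 CPM against 17.9 to 23.5 CPM (0.04, SE 0.27, and -0.0044 without control cells 4 and 5). Lcn2 (NGAL), made by injured tubules and by neutrophils, was at 180 CPM in control cells 5, where neutrophil genes were also highest, and 2.56 to 30.2 CPM in the other 9 libraries (-1.30, SE 1.18, and 0.36 without control cells 4 and 5). Clu was at 190.0 to 278 CPM against 253 to 567 CPM (-0.67, SE 0.27, and -0.39 without them), and Sox9, a factor of regenerating tubules, at 0.13 to 1.48 CPM against 0 to 0.51 CPM (1.11, SE 0.55). The inducible heat shock genes Hspa1a and Hspa1b, near-identical copies, were at 31.1 to 130 and 38.8 to 178 CPM against 22.5 to 47.5 and 25.8 to 66.1 CPM (1.18, SE 0.44, and 1.23, SE 0.47), with NaKtide cells 2 and 5 the highest. Of the 12 chaperones in their list 8 were higher and 4 lower (median 0.08), and voom called 0. In the list 3 were higher with an unadjusted p under 0.05, against 4.11% of all genes. Without control cells 4 and 5, 0 were, against 2.38% of all genes. The fast-response factor Egr1 was at 1.84 to 6.87 CPM against 0 to 3.37 CPM (1.05, SE 0.40). Renin, Ren1, was at 60.4 to 95.2 CPM against 47.1 to 88.9 CPM (0.19, SE 0.36, and 0.36 without control cells 4 and 5), and Gc, the vitamin D-binding protein, at 12.8 to 35.5 CPM against 26.5 to 49.97 CPM (-0.63, SE 0.49).

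The group labelled scrambled places these values beside another lentiviral transplant. It shares the control libraries with the first comparison when set against them and the NaKtide libraries when set against those, so only each comparison's own values are given. Against control cells, scrambled cells had a median of 0.91 over the 16 matrix genes, where NaKtide cells had 0.75, and NaKtide against scrambled cells had -0.19. Col1a1 was 1.60 higher with scrambled than with control cells and -0.11 with NaKtide against scrambled cells. Summed matrix levels were 744 to 1332 CPM with scrambled cells, 554 to 1508 CPM with NaKtide cells, 581 to 634 CPM with control cells and 492 to 715 CPM after sham surgery. Clock output genes had medians of -0.81 with scrambled cells and -0.36 with NaKtide cells against control cells, with sums of 859 to 1231, 1063 to 1746 and 1629 to 1945 CPM. Rasd2 was at -1.44 with scrambled against control cells and 0.40 with NaKtide against scrambled cells, and Prelp at 0.53 and 0.68 in the same order. Ehd3 was at -0.14 and 0.73, Cpm at -0.02 and 0.82, and Gsta2 at 0.21 and -1.25. No gene passed edgeR's test for NaKtide against scrambled cells (0 of 16307, 0%, and 819, 5.02%, at an unadjusted p under 0.05), 2 did for scrambled against control cells (0.0123%), both lower with scrambled cells, and 2742 did for PNx against Sham (16.8%).

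**Figure D5:**
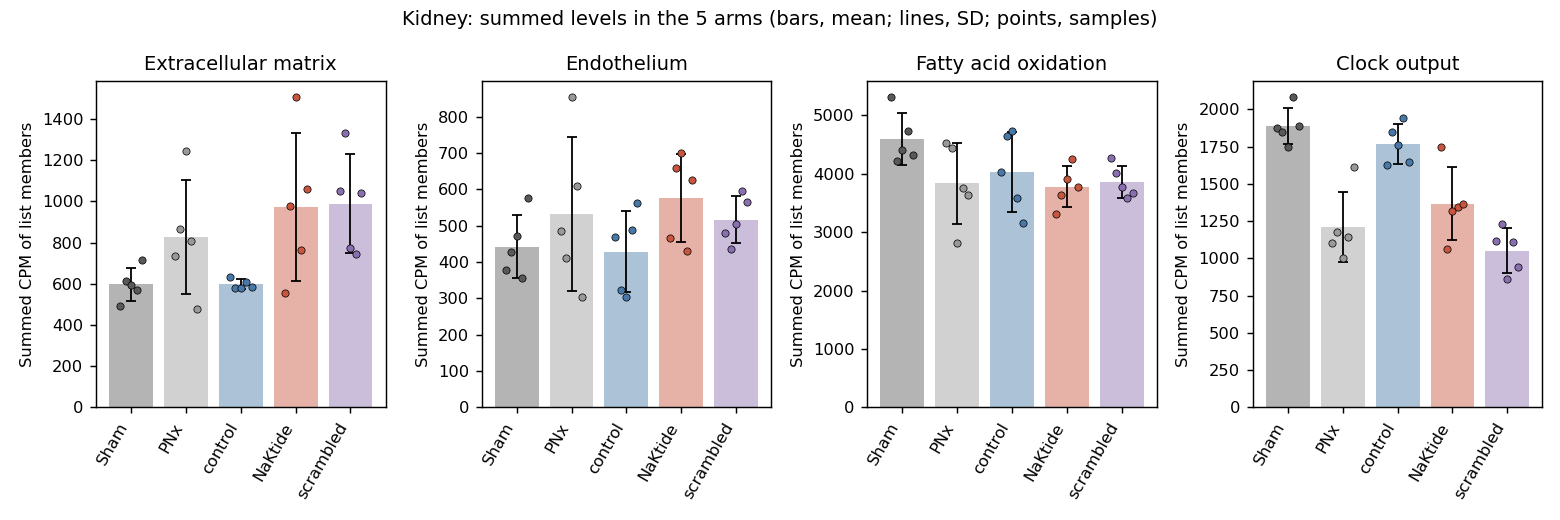
Summed CPM of matrix (16 genes), endothelial (10), fatty acid oxidation (16) and clock output (8) genes in the 5 kidney arms, with bars for means, lines for SD and points for the 5 samples of each arm. Matrix sums span 581 to 634 CPM with control cells, 554 to 1508 CPM with NaKtide cells and 744 to 1332 CPM with scrambled cells, and clock output sums are lower in both of the latter than the 1629 to 1945 CPM with control cells in most samples.

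The same groups in heart and VFAT had no called gene either. edgeR called 0 of 15091 genes in heart (206 at an unadjusted p under 0.05, 1.37%) and 0 of 17552 in VFAT (1330, 7.58%). Matrix genes were higher with NaKtide cells in 15 of 16 in both tissues, with medians of 0.28 in heart and 0.45 in VFAT, and Col1a1 was at 0.20 and 1.01. Clock output genes were lower in 8 of 8 in heart (median -0.71) and 7 of 8 in VFAT (-0.42), and Arntl was at 1.05 and 1.22. Igtp was at -0.995 and -0.75. Those of fatty acid oxidation were lower in 13 of 15 in heart (median -0.10) and 14 of 15 in VFAT (-0.67). Endothelial genes were higher in 9 of 10 in heart (0.21) and lower in 8 of 10 in VFAT (-0.13). The difference between tissues was not tested. Kidney, heart and VFAT samples with the same number may come from the same animals, which the labels do not say.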

How the data were processed

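RNA from flash-frozen kidney was read as 2 reads of 50 bases, per the series' design text. Deposited values are raw gene counts, not normalized by the authors. The genome build GRCm38, the aligner HISAT2 2.1.0, the trimmer Trimmomatic 0.38 and DESeq2 (1.20.0, 1.20.1) appear, per the submitters' processing notes. Which program counted reads, and whether by strand, is not given in the sources used here. Reads of antisense partners or near-identical copies may be mixed. One edgeR 4.0.16 fit (TMM scaling, expression filter, quasi-likelihood F test, two-sided) covered 25 kidney samples in 5 arms, the second library of Sham 3 being added to the first, with Benjamini-Hochberg adjustment over 16307 genes and calls at an adjusted p under 0.05. Levels are TMM-scaled CPM. limma 3.58.1 (voom) and DESeq2 1.42.0 were alternatives, with a replicate block, other filters and scalings, a length covariate and each library left out. The fit was tested on simulated data. Coordinates are from GENCODE M21. Named genes were the 12 lowest p values per direction whose mean log2 CPM reached 2, up to 4 members per list and a fixed set. Members and the 44 lists were chosen with earlier results of these data known. Some genes the rule picks are not reported here.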

Additional observations from a re-analysis of the deposited data

Results flagged for a closer look

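In groups of 5 libraries, a value was examined where its gap to the nearest other library took more than 0.71 of the group's range (Dixon's 95% critical value), which chance reaches in about 1 of 20 groups. Of 194 groups of 5 examined, 25 had such a library, and 10 of the 25 were for small structured RNAs, counting their share of the library. Control cells 5 stood apart for Rn7s1 (16813 CPM), Rn7s2 (17066 CPM), Rn7s6 (7682 CPM), Rn7sk (1948 CPM) and the small RNA share (9.74%). It also stood apart for Lars2 (14248 CPM), mt-Ts1 (109.9 CPM), Lcn2 (180.3 CPM) and Adipoq (32.1 CPM), and on the low side for Svep1 (2.47 CPM) and Atp1b3 (55.6 CPM). NaKtide cells 1 stood apart in its own group for Rn7s1 (61.6 CPM), Rn7s2 (63.0 CPM), Rn7s6 (17.4 CPM), Rn7sk (35.6 CPM), the small RNA share (0.151%), Rplp1 (581 CPM), Cox4i1 (1320 CPM) and, on the low side, Src (30.3 CPM). Control cells 2 was far above the other control libraries for Igtp (89.6 CPM), Irgm1 (157 CPM), Gbp6 (28.2 CPM) and Gbp10 (12.3 CPM). The remaining 2 were Arap3 in control cells 1 (13.7 CPM, the highest) and Per2 in control cells 4 (13.3 CPM, the lowest).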

How the results depend on the processing

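edgeR called 0 genes under each of its alternatives, the replicate block (5 arms or 2) included, and leaving out each library in turn gave 0 to 0. At an unadjusted p under 0.05 it counted 2102 genes, 477 with the replicate block in 2 arms, 1264 with those arms alone, 1175 with the length covariate, 898 without control cells 5, 905 without control cells 4, and 3301 without control cells 1. limma voom called 392 genes (304 higher, 88 lower) and, without control cells 4 and 5, 661 (459 and 202). DESeq2 called 78 (1 and 77), and 28 (6 and 22) without its independent filter. Same-numbered libraries of the groups had correlations of -0.62 to 0.34, 2 of 5 pairs were over 0.1 and 1 of 10 libraries correlated best with its own number, so the replicate block pairs samples by number only. Over 93 named genes, 2078 gene and setting pairs kept direction and side of the threshold, 81 kept direction where DESeq2 gave no adjusted p, 99 passed it and 59 turned, in 16 genes. Without control cells 4 and 5, and without PNx 3 to 5 as well, Rn7s6 was at 0.73 and 0.68, Rn7s1 at 0.74 and 0.69, Rn7s2 at 0.75 and 0.70, Rn7sk at 0.38 and 0.34, Rplp1 at 0.069 and 0.049, Cox4i1 at 0.070 and 0.051, Kap at 0.081 and 0.064, and Fxyd2 at 0.14 and 0.13. In the same pair of settings Atp1b1 was at -0.17 and -0.18, Havcr1 at -0.0044 and -0.016, Lcn2 at 0.36 and 0.35, Umod at -0.11 and -0.12, Slc5a12 at -0.30 and -0.31, and Mapk3, in the former, at 0.0060. Without NaKtide cells 1 too, values were -0.10 (Atp1b1), 0.018 (Src), 0.0045 (Mapk3), 0.62 (Lcn2), -0.00085 (Umod) and -0.29 (Slc5a12). With the length covariate they were -0.19 (Atp1b1), -0.0077 (Havcr1), 0.48 (Lcn2), -0.10 (Umod) and -0.11 (Slc5a12). voom gave 0.73 (Lcn2) and -0.11 (Slc5a12), and without control cells 4 and 5 -0.071 (Atp1b1), 0.011 (Mapk3), -0.049 (Havcr1), 0.75 (Lcn2), -0.026 (Umod) and -0.39 (Slc5a12). Umod was at -0.0027 in DESeq2 with or without its filter and -0.0024 with its size factors. Leaving out each replicate gave -0.018 to 0.26 (Atp1b1), -1.62 to 0.015 (Lcn2), -0.019 to 0.39 (Cdkn1a), -0.077 to 0.13 (Umod) and -0.074 to 0.51 (Slc5a12). The cause was not tested. The DESeq2 fit without its filter and the 3 fits that left out control cells 4 and 5 with no PNx sample were chosen after seeing the data. The 1241590 counts of control cells 5 limit genes of low level, such as Lox and Arntl, to a few counts there.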
